A study of Mus musculus with 15 samples.

Results

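Immediate early genes were followed in RNA from the dentate gyrus of mice with and without the serotonin receptor 5-HT4R in hippocampal excitatory neurons. The 10 genes (Fos, Fosb, Jun, Junb, Egr1, Arc, Npas4, Nr4a1, Ier2 and Dusp1) were chosen by symbol from the 32657 genes of the count tables, and all 10 had reads in all 15 libraries. RNA was sequenced from translating ribosome affinity purification (TRAP), in which ribosomes carrying an EGFP-tagged L10a protein are immunoprecipitated (IP) to recover the mRNA being translated in the tagged cells, and from the whole tissue homogenate taken before the IP (input). There were 3 WT and 2 cKO libraries of the ventral dentate gyrus (vDG) IP, 3 WT and 2 cKO of the vDG input, and 3 WT and 2 cKO of the dorsal dentate gyrus (dDG) input. Each library was a pool of mice, given in the sample records as 3 mice for an IP and 2 for an input, and in the study's methods as one male and one female.

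All animals were adults of 8 to 12 weeks and all carried Drd3-Cre KI198 and Rosa26-fsTRAP, so that Cre and the tagged ribosomal protein were present in WT and cKO alike. The cKO mice carried Htr4-Floxed in addition, an allele from which Cre removes a single exon of Htr4. The Cre line marks granule cells and the mossy cells of the hilus in the dentate gyrus, and some pyramidal cells of CA1 and CA3 outside it. The tagged mRNA of an IP can thus come from more than 1 cell type, and an input holds every cell of the dissected tissue. No behavioral, drug or electrical stimulus was named for these animals, so the values are levels after dissection in mice with no stated stimulus. Handling and time of day before death were not stated for them. By the study's methods the dissection and extraction buffers held cycloheximide, and its part in the levels was not tested. The records call the input source whole cortex, whereas titles and region labels say dentate gyrus. Trhr, a ventral dentate marker, was at 14.6 to 31.8 CPM (reads of the gene per 1e6 counted, scaled as given further on) in the 5 vDG inputs and at 0.117 to 0.719 in the 5 dDG inputs, and Lct, a dorsal marker, was higher in every dDG input than in every vDG input.

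Immediate early genes are transcribed within minutes of synaptic activity, growth factors or stress from proteins already present in the cell, chiefly CREB, which binds cAMP response elements, and SRF with its ternary complex partners, which bind serum response elements. Most encode transcription factors, including the AP-1 proteins of the Fos and Jun families, the zinc finger protein Egr1, the bHLH-PAS factor Npas4 and the orphan nuclear receptor Nr4a1. In the dentate gyrus their mRNA is used to mark the sparse granule cells that were recently active, and 5-HT4R is a Gs-coupled receptor that raises cAMP.

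RefSeq promoters, from 250 bases before to 50 bases after the transcription start, were matched for 7 of the 10 genes (Fos, Fosb, Jun, Junb, Npas4, Nr4a1 and Dusp1). The half-site of the cAMP response element, TGACG on either strand, was present in 6 of these 7 and in 20.8% of all 32851 promoters of the same length in the table. Nr4a1 held 4 copies, a number reached by 0.231% of all promoters, and Dusp1 held 3 copies, of which 2 overlap in the palindrome TGACGTCA, a sequence found in 1.79% of all promoters. Fos and Npas4 held 2 copies each, where 5.01% of all promoters held at least 2, and Fosb and Junb held 1 each. Jun held none, and a CArG box, the core of the serum response element, was in none of the 7 windows and in 1.63% of all. On either strand, TATAA was found in Fos, Npas4 and Junb and in 24.9% of all promoters, and GGGCGG, the GC box, in 6 of the 7 and in 35.7% of all. The AP-1 site TGANTCA was in none of the 7 and in 7.81% of all. The 4 promoters printed are those of the genes on which the results turn: Nr4a1 and Dusp1, which differed between the regions, Npas4, which varied most between pools, and Jun, which varied least. Sequences are GRCm38.p6, read 5′ to 3′ on the strand of the gene, and capitals mark each TGACG or its complement CGTCA. They span chr15:101266596-101266895 on the plus strand for Nr4a1, and chr17:26508423-26508722, chr19:4989922-4990221 and chr4:95052173-95052472 on the minus strand for Dusp1, Npas4 and Jun.
Nr4a1: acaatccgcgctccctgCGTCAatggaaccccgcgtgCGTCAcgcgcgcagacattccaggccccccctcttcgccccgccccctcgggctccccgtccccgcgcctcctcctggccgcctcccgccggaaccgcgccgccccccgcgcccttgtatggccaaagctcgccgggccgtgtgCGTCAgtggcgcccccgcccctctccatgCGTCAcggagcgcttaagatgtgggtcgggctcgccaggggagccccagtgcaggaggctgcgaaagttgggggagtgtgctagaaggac
Dusp1: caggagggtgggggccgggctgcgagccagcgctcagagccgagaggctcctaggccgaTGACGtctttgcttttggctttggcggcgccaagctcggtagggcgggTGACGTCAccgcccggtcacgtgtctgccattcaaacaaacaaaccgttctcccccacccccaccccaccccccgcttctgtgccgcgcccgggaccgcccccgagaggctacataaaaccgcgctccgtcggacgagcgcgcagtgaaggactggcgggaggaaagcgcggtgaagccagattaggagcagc
Npas4: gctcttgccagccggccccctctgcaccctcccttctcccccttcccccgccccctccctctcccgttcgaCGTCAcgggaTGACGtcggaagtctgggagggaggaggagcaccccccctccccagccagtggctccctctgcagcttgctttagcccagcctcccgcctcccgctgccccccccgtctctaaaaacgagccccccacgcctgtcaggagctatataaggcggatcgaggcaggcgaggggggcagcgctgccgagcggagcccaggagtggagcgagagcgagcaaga
Jun: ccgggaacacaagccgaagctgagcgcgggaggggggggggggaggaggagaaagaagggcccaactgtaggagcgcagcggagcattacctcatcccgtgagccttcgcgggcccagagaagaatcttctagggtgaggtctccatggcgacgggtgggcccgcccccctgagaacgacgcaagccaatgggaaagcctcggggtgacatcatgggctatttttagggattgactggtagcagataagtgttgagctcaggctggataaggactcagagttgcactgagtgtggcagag
Of the 4 copies in Nr4a1, 2 start at bases -69 and -40 and 2 at -233 and -213 from the transcription start, and all are on the strand opposite to the gene. The copies in Dusp1 start at -191, -143 and -140. The 2 copies in Npas4 start at -179 and -169, on opposite strands. Such matches are a description of the letters in the window and not evidence of binding.

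**Figure D1:**
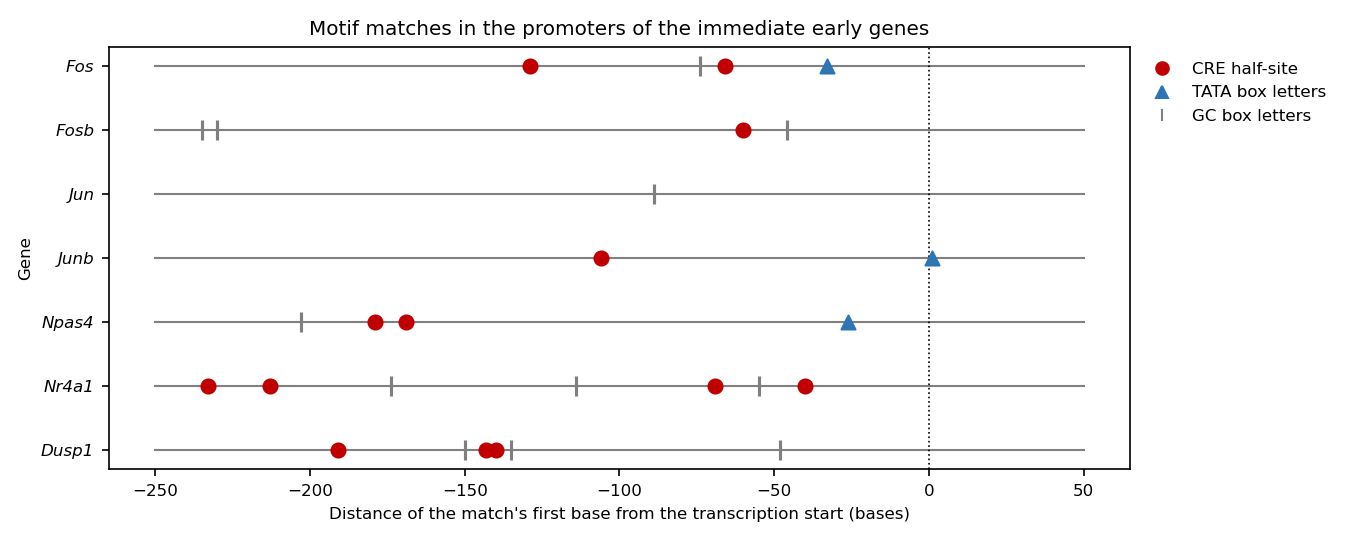
Positions of 3 motifs in the promoters of 7 immediate early genes; the horizontal axis is the distance in bases from the transcription start, each line is one promoter, circles are half-sites of the cAMP response element (TGACG on either strand), triangles TATAA and ticks GGGCGG. Nr4a1 carries 4 circles, Dusp1 3, Fos and Npas4 2 each, Fosb and Junb 1 each and Jun none.

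The libraries held 19039295 to 30451430 reads counted on genes, and each member's level is given as CPM scaled by TMM over all 15 libraries. Divided by exonic length, the order was Jun at 57.0 CPM per kb on average over all libraries, Egr1 at 15.7, Arc at 7.06, Junb at 2.62, Dusp1 at 2.20, Nr4a1 and Fosb at 1.69 each, Fos at 0.820, Npas4 at 0.615 and Ier2 at 0.443. Fos, the usual marker of active cells, was thus at 16 to 73 reads a library, and Ier2 at 5 to 37, against 2940 to 6165 for Jun. Counting error is therefore a visible part of the spread of Fos and Ier2. For Npas4 it came to 9.76% to 13.8% of the group mean. The SD of Npas4 was 65.7% to 119% of the mean in every group but the cKO dDG input (6.23%). Jun, Junb and Dusp1 share exonic bases with Junos, Prdx2 and Ergic1 in the annotation, so reads from these stretches are uncertain. The IPs held less of other cell types without being free of them: the summed level of 8 microglial markers was 3.16 to 6.20 CPM in the IPs and 22.8 to 64.6 in the inputs, and that of 7 oligodendrocyte markers 159.5 to 214.8 and 325 to 477. Htr4, the targeted gene, was at 13.5 to 18.5 CPM in the 6 WT vDG libraries and 27.0 to 30.2 in the 4 cKO vDG libraries. Its table row sums all exons and does not test the deletion. The WT dDG inputs differed widely among themselves in choroid plexus markers. Their summed level was 31.8 to 148 CPM over the 3 WT dDG inputs and 17.9 to 35.6 in the libraries of all other groups.

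**Figure D2:**
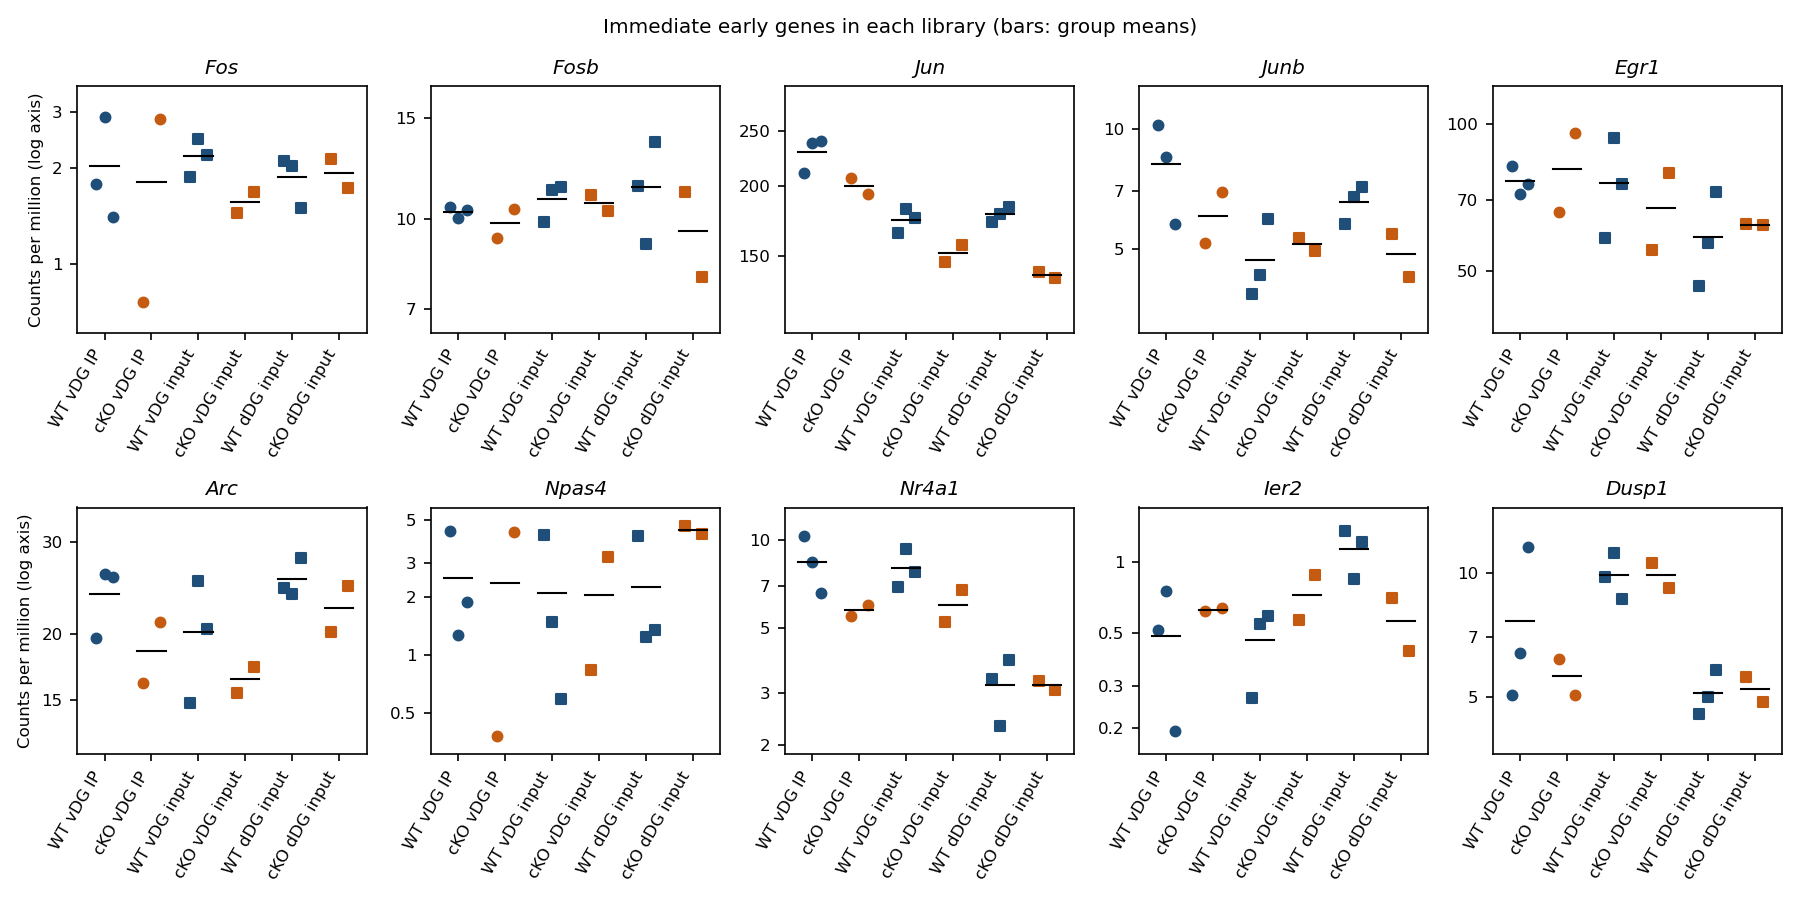
Level of each of the 10 genes in every library, in CPM on a log axis; circles are IP and squares input libraries, blue is WT and orange cKO, and bars are the group means over 3 WT or 2 cKO libraries. Nr4a1 and Dusp1 are higher in all 5 vDG inputs than in all 5 dDG inputs, Jun is lower in cKO than in WT in each of the 3 tissue fractions, and Npas4 covers a 12.2-fold range.

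Pooled over the groups, Npas4 varied most between the pools of a group, although not in each group. Npas4, a factor induced by calcium entry in neurons, was at 4.38, 1.27 and 1.87 CPM in the WT vDG IPs 1 to 3, at 4.17, 1.47 and 0.591 in the WT vDG inputs and at 4.13, 1.24 and 1.34 in the WT dDG inputs. In the cKO it was at 0.381 and 4.34 CPM in the vDG IPs, 0.837 and 3.23 in the vDG inputs and 4.64 and 4.25 in the dDG inputs. The libraries thus fell at 3.23 CPM or above (7 libraries) or at 1.87 or below (8 libraries), with none between, and in 5 of the 6 groups both kinds occurred. The WT libraries numbered 1 were the highest of their group in all 3 groups, and the records do not say whether libraries of one number share mice. Counting error does not cover these gaps: the exact 95% Poisson interval was 3.33 to 5.07 CPM for WT dDG input 1 and 0.801 to 1.83 for WT dDG input 2.

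Put on one scale, the within-group SD of log2 CPM, pooled over the 6 groups with 9 degrees of freedom, was 1.24 for Npas4, higher than in 99.8% of the 16493 genes with enough counts. It was 0.53 for Ier2 and 0.52 for Fos, both at the 81st percentile to the nearest whole number (81.0 and 80.6), where the median over all genes was 0.23. Dusp1 (0.32), Junb (0.29), Egr1 (0.29), Nr4a1 (0.27), Arc (0.25) and Fosb (0.19) lay between the 39.5th and 65.7th percentiles. Jun was among the steadiest genes of the table, with an SD of 0.07, at the 1.18th percentile. Low counts raise this SD, so Fos and Ier2 cannot be set beside Jun without that limit.

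The 10 members did not all rise and fall together from pool to pool. Of the 45 pairs of members, 31 had a positive correlation of their deviations from group means over the 15 libraries and 14 a negative one, with a median of 0.24 and a range from -0.65 (Junb with Dusp1) to 0.70 (Nr4a1 with Ier2). Most of the negative pairs held Jun or Dusp1. Counting error can weaken the correlations of Fos and Ier2, and the same values were not computed over all pairs of genes. The points share libraries and scaling, and in the groups of 2 the deviations mirror each other, so these are descriptions only. Egr1 and Arc, a transcription factor and a dendritic cytoskeletal protein that both mark plasticity, had r = 0.66. In some libraries most members lay on one side of their group mean: 9 of the 10 genes, all but Arc, were above it in cKO dDG input 1, 8 in cKO vDG IP 2, WT vDG input 2 and WT dDG input 3, and 1, Npas4, in WT vDG input 1. In the cKO vDG IPs Fos was at 0.761 and 2.85 CPM and Egr1 at 66.1 and 96.0 CPM in libraries 1 and 2.

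**Figure D3:**
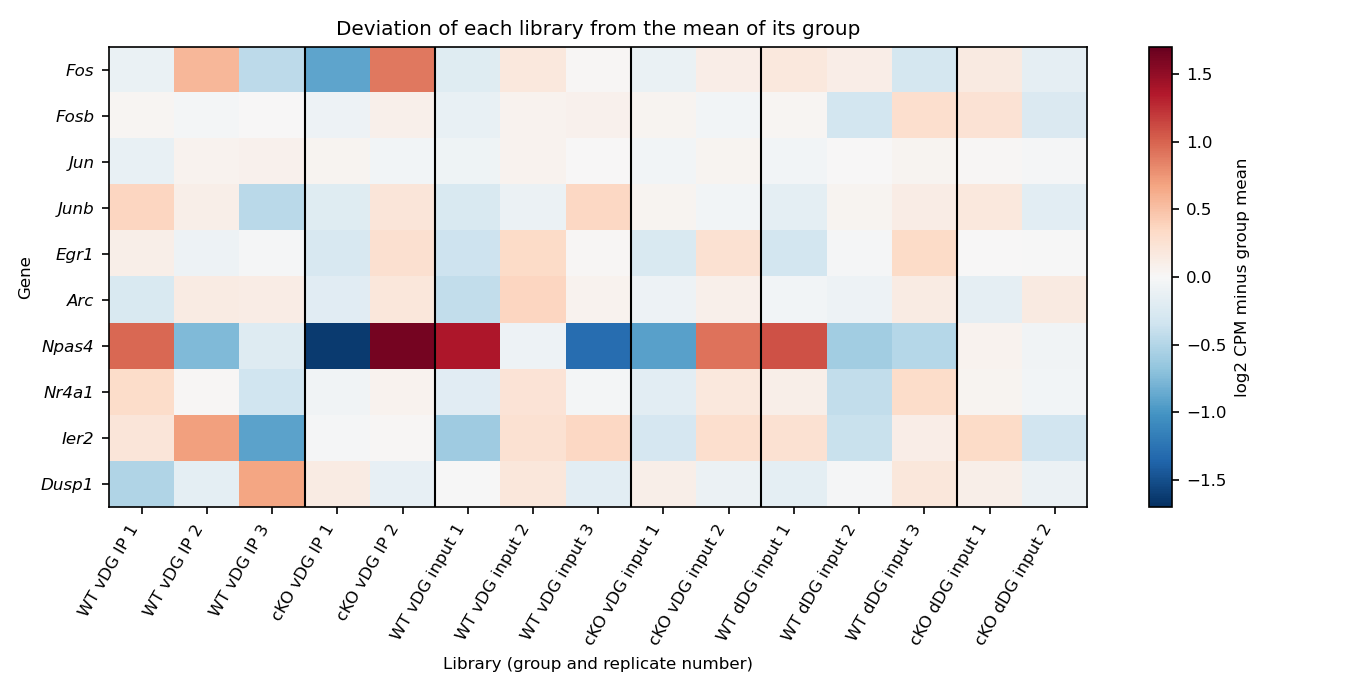
Deviation of each gene in each library from the mean of its group, on the log2 CPM scale; columns are libraries ordered by group, black lines separate the 6 groups, red is above and blue below the mean. Npas4 shows the deepest colors, up to 1.63 in the cKO vDG IPs, and Jun the palest.

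Among the 10368 other genes with a mean of at least 5 CPM, those whose deviations followed the mean deviation of the 10 members most closely were Peg10 (r = 0.93 over 15 libraries), Drd1 (0.88), Pdxk (0.88), Dusp6 (0.87) and Acp6 (0.86). By level rather than deviation they were Zdhhc16 (0.78), Dusp6 (0.75), Pdxk (0.72), Tmem185b (0.71) and Apbb3 (0.71). Correlations of about that size also occurred in the opposite direction, at -0.90 for Zscan21 and -0.89 for Eif2ak3 by deviation. Dusp6, a phosphatase of ERK that is itself activity-induced, and Pdxk were in both sets, which are not independent since levels contain the deviations. The mean over the members leans on Npas4, their most variable gene. Genes whose deviations were nearest to those of Npas4 alone, looked up after its spread had been seen, were Zfp810 (0.96), Pstk (0.95), Fam214a (0.95), Fkbp5 (0.94), a co-chaperone of the glucocorticoid receptor, and Smpd4 (0.93). All these rankings pick the extremes of 10368 genes, with 9 degrees of freedom for deviations, and a link of any named gene to the members was not tested.

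Whether the genes differed along the dorsoventral axis was asked in the inputs, vDG against dDG, within each genotype. In WT mice 2 of the 10 passed an FDR of 0.05 by edgeR's quasi-likelihood test, both higher in the vDG, where 15.3% of the 15412 genes tested passed in either direction, 9.26% higher and 6.09% lower. The median difference of the 10 was log2 -0.06, against -0.01 over all genes. Nr4a1, an orphan nuclear receptor that acts as a transcription factor, was at 6.93, 9.36 and 7.76 CPM in the WT vDG inputs and at 3.37, 2.33 and 3.89 in the WT dDG inputs. Every vDG library lay above every dDG library, and the difference was 2.48-fold (log2 1.31 ± 0.22 SE, edgeR FDR = 0.000569). Dusp1, a nuclear phosphatase that switches off MAP kinases, was at 9.80, 11.2 and 8.63 CPM in the vDG and 4.54, 5.0004 and 5.82 in the dDG. These groups did not overlap either, with a 1.91-fold difference (log2 0.94 ± 0.19, FDR = 0.00195 by edgeR). Both stayed past the threshold in all 13 alternative settings, the leaving out of each library among them, at log2 1.13 to 1.48 for Nr4a1 and 0.83 to 1.04 for Dusp1.

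In cKO mice the same 2 genes passed in the same direction, where 17% of 15505 genes passed, 8.56% higher and 8.47% lower. The median of the 10 was log2 0.11, against 0.01 over all genes. Nr4a1 was at 5.25 and 6.76 CPM in the cKO vDG inputs and 3.32 and 3.08 in the dDG (log2 0.90 ± 0.24, edgeR FDR = 0.0140), a call lost without vDG input 2 or dDG input 2 (FDR = 0.0744 and 0.0802). Dusp1 was at 10.6 and 9.22 CPM in the vDG and 5.58 and 4.86 in the dDG (log2 0.91 ± 0.20, edgeR FDR = 0.00318). WT and cKO groups are separate pools, so the 2 comparisons share no library. By the study's methods dorsal and ventral tissue were dissected together, so vDG and dDG inputs may share mice, and the main fits took them as unpaired.

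The other members showed no such step in WT mice. The effector gene Arc was at 14.8, 25.3 and 20.5 CPM in the WT vDG and 24.6, 23.9 and 27.9 in the dDG (log2 -0.34 ± 0.17, edgeR FDR = 0.216), with overlapping groups. Egr1 was at 58.4, 93.6 and 75.5 CPM in the WT vDG and 46.6, 57.1 and 72.5 in the dDG, also overlapping (log2 0.36 ± 0.17, edgeR FDR = 0.187). It passed in 4 of 13 alternatives. These were no count filter (FDR = 0.0403), the replicate number as a block, leaving out WT vDG input 1 (FDR = 0.0457) and leaving out WT dDG input 3 (FDR = 0.0496). Over the 13 it ran from log2 0.17 to 0.54, with an edgeR or DESeq2 FDR of up to 0.634. Ier2, a nuclear protein of little known function, did not overlap and was lower in the vDG, but at 7, 16 and 15 reads against 30, 17 and 37 it missed the threshold (log2 -1.27 ± 0.47, edgeR FDR = 0.0817). In all, 3 of the 10 members had groups that did not overlap, where 31.3% of all genes tested did. Junb differed by log2 -0.49 ± 0.21 (edgeR FDR = 0.142), and Fos, Fosb, Jun and Npas4 by 0.22 or less in size. That of Npas4 rested on single libraries, at log2 -0.11 with all, -1.09 without WT vDG input 1 and 0.67 without WT dDG input 1, none past the threshold by edgeR.

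Arc and Npas4 were called lower in the vDG of cKO mice, neither firmly. Arc was at 15.5 and 17.4 CPM in the cKO vDG inputs and 20.2 and 24.8 in the dDG (log2 -0.46 ± 0.16, edgeR FDR = 0.0478). Npas4 was at 0.837 and 3.23 against 4.64 and 4.25 CPM (log2 -1.13 ± 0.39, edgeR FDR = 0.0496). Neither pair of groups overlapped, nor did those of Fos, Jun, Nr4a1 and Dusp1, which made 6 of 10 members, 3 higher and 3 lower, where 58.1% of all genes did not overlap, 30.4% higher and 27.7% lower. Both calls were lost under DESeq2 (adjusted p = 0.0673 for Arc and 0.0851 for Npas4) and without cKO vDG input 1 (edgeR FDR = 0.166 and 0.327), and that of Arc also without dDG input 2 (FDR = 0.458). Without cKO vDG input 1 the difference of Npas4 was log2 -0.49, and over all 11 alternatives it ran from -2.42 to -0.49. Both were also lost with library size alone (edgeR FDR = 0.0920 for Arc and 0.0664 for Npas4), which moved the share of higher calls among all calls from 50.3% to 65.3%, and with all 6 groups in one fit, where that of Dusp1 was lost too (FDR = 0.0520).

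**Figure D4:**
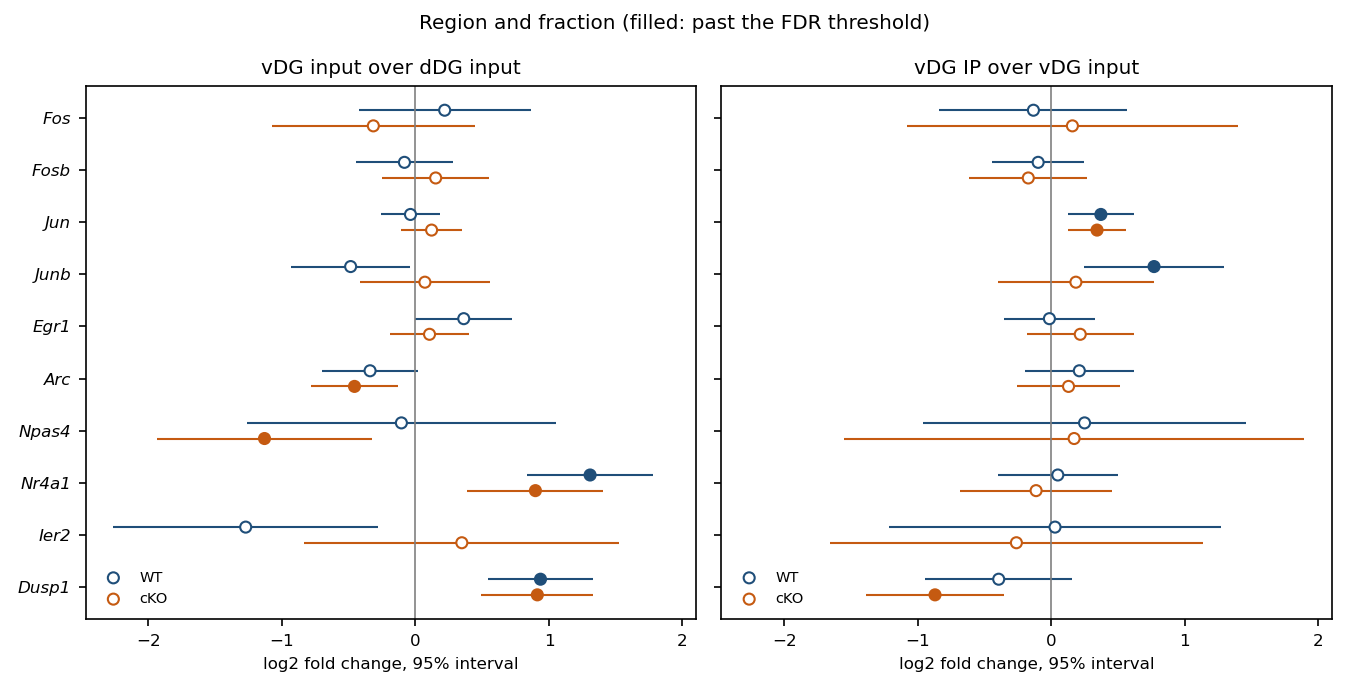
Log2 fold changes of the 10 genes with 95% intervals from edgeR, for vDG over dDG input on the left and vDG IP over vDG input on the right; blue is WT, orange cKO, and filled points passed an FDR of 0.05. Nr4a1 and Dusp1 are filled above zero for region in both genotypes, and Jun is filled above zero for fraction in both.

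The markers of cell types in the tissue moved with region too. In WT inputs the summed level of 6 mossy cell markers was 497 to 543 CPM in the vDG and 270 to 331 in the dDG. All 6 had a positive difference, and those called were Calb2 (mean 70.8 against 2.19 CPM) and Ociad2 (131 against 46.2). The summed level of 7 GABAergic interneuron markers was 452 to 502 and 287 to 350 (3 of 7 called higher). That of 6 CA pyramidal markers was 52.0 to 63.0 and 37.9 to 41.7 (3 called higher and 1, Fibcd1, lower). Granule cell markers went the other way, at 1012 to 1148 and 1582 to 1615 CPM, and their 4 calls of 6 were all lower in the vDG. In cKO inputs mossy cell markers were at 396 to 433 and 299 to 358 CPM (3 of 6 called higher) and interneuron markers at 372 to 374 and 305 to 333 (3 of 7 called higher). There CA pyramidal markers were at 45.8 to 49.1 and 30.4 to 37.9 (3 called higher and 1 lower), and granule cell markers at 1049 to 1065 and 1558 to 1572 (5 of 6 called lower). Oligodendrocyte markers were lower in the vDG, at 344 to 408 and 445 to 477 CPM in WT (4 of 7 called) and 325 to 369.8 and 448 to 449.5 in cKO (2 of 7 called). None of these markers was at 0 in all libraries of a group. Immature neuron and progenitor markers were at 181 to 212 and 229 to 243 CPM in cKO (3 of 7 called lower). In WT they overlapped, at 144 to 212 and 177 to 253 CPM (1 of 6 tested called higher). The part of these differences in the levels of Nr4a1 and Dusp1 was not tested. In bulk tissue a change in the number of cells of a type and a change of RNA per cell cannot be told apart.

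Nr4a1 was accompanied by both of its relatives, which belong to a list of 36 other rapid activity-induced genes. Nr4a3 was at 125, 145 and 138 CPM in the WT vDG inputs and 33.2, 42.8 and 56.3 in the dDG (log2 1.62 ± 0.16, edgeR FDR = 2.06e-06). Nr4a2 was at 30.02, 56.8 and 39.3 CPM and 21.6, 23.8 and 26.0 (log2 0.82 ± 0.19, edgeR FDR = 0.00552). In neither gene did the groups overlap, and both were higher in the cKO vDG as well, by log2 1.07 ± 0.13 for Nr4a3 and 0.53 ± 0.15 for Nr4a2 (edgeR FDR = 6.98e-06 and 0.0203).

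In WT mice 32 of the 36 genes of that list were tested, 4 rose, the Nr4a genes among them, and 7 fell, where 9.26% of all genes tested were higher and 6.09% lower, with a median of log2 -0.08 against -0.01 over all genes. Among genes of at least 5 CPM that passed, the next rise after the Nr4a genes was that of Dusp6 (0.64 ± 0.16, edgeR FDR = 0.0109). Those of at least 5 CPM that fell most were Dusp4 (-0.88 ± 0.13), a phosphatase of the family of Dusp1, Ier5 (-0.84 ± 0.17) and Rgs2 (-0.68 ± 0.14), a regulator of G protein signaling. In cKO mice 4 of 31 rose and 9 fell, where 8.56% of all genes were higher and 8.47% lower, 17 of the 31 had a positive difference, and the median was 0.08. Dusp4, Ier5 and Rgs2 fell there too, by log2 -0.76, -0.95 and -0.67.

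Of 14 tested late activity-induced genes, products of the second wave, 3 rose and 5 fell in the WT vDG (median log2 -0.06) and 2 rose and 8 fell in the cKO vDG (median -0.50). Over all genes tested 15.3% passed in WT and 17% in cKO, the background for these and for the regulators that follow. Vgf, a secreted neuropeptide precursor, rose by log2 0.88 ± 0.22 in WT and 1.33 ± 0.20 in cKO. Inhba, an activin subunit, fell by 1.30 in WT and by 2.21 in cKO on the log2 scale. Of 22 upstream regulators, 1 (Camk4, 0.85 ± 0.17) rose and 7 fell in the WT vDG, among them Creb1 (-0.34 ± 0.11), and 0 rose and 6 fell in the cKO vDG by edgeR, where Creb1 was not among them.

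Whether translating mRNA of the tagged cells carried these genes at other levels than the whole tissue was asked by comparing vDG IP with vDG input. Jun, the steady AP-1 subunit, was higher in the IP in both genotypes, and no other member was called in both. In WT mice 2 of 10 members passed, Jun and Junb, both higher, where 23.9% of 15011 genes passed and 7.73% were higher. The median of the 10 was log2 0.04, against 0.00 over all genes. Jun was at 211, 238 and 240 CPM in the WT IPs and 165, 182 and 176 in the WT inputs. The groups did not overlap, and the difference was 1.29-fold (log2 0.37 ± 0.11, edgeR FDR = 0.0302). Junb was at 10.2, 8.51 and 5.77 CPM in the IPs and 3.87, 4.32 and 5.95 in the inputs, overlapping by 1 library on each side (log2 0.77 ± 0.25, edgeR FDR = 0.0353). Of the 10 members Jun alone did not overlap, where 40.5% of all genes did not.

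In cKO mice Jun was at 207 and 193 CPM in the IPs and 147 and 157 in the inputs (log2 0.34 ± 0.10, edgeR FDR = 0.0220), where 27.5% of 15126 genes passed, 11.8% higher and 15.7% lower. The median of the 10 was log2 0.14, against -0.03 over all genes. Dusp1 was lower in the cKO IP, at 6.18 and 5.06 CPM against 10.6 and 9.22 (log2 -0.87 ± 0.24, edgeR FDR = 0.0165). These 2 members did not overlap between fractions, where 65.5% of all genes did not, 34.1% higher and 31.4% lower. In WT mice Dusp1 was at 5.05, 6.40 and 11.5 CPM in the IPs and 9.80, 11.2 and 8.63 in the inputs (log2 -0.39 ± 0.26, edgeR FDR = 0.294). Its IP 3 lay above all inputs, and without that library the difference was log2 -0.80 (FDR = 0.00786). The difference between genotypes in this ratio was log2 -0.45 ± 0.39 and did not pass (edgeR FDR = 0.99997). Over 17 alternatives it ran from -0.75 to -0.07, none past the threshold.

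The calls for Jun and Junb depended on scaling. TMM places the IPs higher against the inputs than library size alone, which moved the median gene by log2 -0.13 in WT and -0.17 in cKO and left Jun at 0.24 in WT (edgeR FDR = 0.144) and 0.18 in cKO (FDR = 0.252) and Junb at 0.64 (FDR = 0.0759). With library size alone the share of higher calls among all calls went from 32.4% to 13.9% in WT and from 43% to 18.9% in cKO. The WT call of Jun was lost without IP 2, input 1 or input 3 (FDR = 0.0851, 0.108 and 0.0786) and that of Junb without any 1 of IP 1, IP 2, input 1 and input 2 (FDR = 0.125, 0.0929, 0.133 and 0.0968). With 10 counts in every library the WT calls of Jun and Junb were lost, and that of Junb was also lost with the replicate number as a block. The cKO call of Jun was lost without IP 1 or input 1 (FDR = 0.0759 and 0.117), and that of Dusp1 without either input (FDR = 0.137 without input 1 and 0.0546 without input 2).

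Nr4a1, higher in the vDG than in the dDG, was at 10.3, 8.43 and 6.59 CPM in the WT IPs and at 6.93, 9.36 and 7.76 in the inputs, a difference of log2 0.05 with a 95% interval from -0.40 to 0.50. In those IPs interneuron markers summed to 166 to 188 CPM against 452 to 502 in the inputs, and mossy cell markers to 536 to 675 against 497 to 543. In cKO mice the difference of Nr4a1 was log2 -0.11 (-0.68 to 0.45). Its relative Nr4a3 was higher in the IP of both genotypes, by log2 0.48 ± 0.12 in WT and 0.41 ± 0.13 in cKO (edgeR FDR = 0.00871 and 0.0382). IP libraries of the dDG were not analysed here.

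Fos, Fosb, Egr1, Arc, Npas4 and Ier2 differed between IP and input by at most log2 0.26 in size in either genotype, with overlapping groups. The intervals were narrow for Fosb (-0.44 to 0.25 in WT) and wider for Fos (-0.84 to 0.57 in WT and -1.08 to 1.40 in cKO), Ier2 (-1.22 to 1.27 and -1.66 to 1.13) and Npas4 (-0.96 to 1.46 and -1.55 to 1.89). Leaving out single libraries moved the noisier members: Fos in cKO mice ran from log2 -1.08 without IP 2 to 0.84 without IP 1, and Npas4 in WT mice from -0.42 without IP 1 to 1.24 without input 1, none past the threshold by edgeR. Egr1 in cKO mice, at log2 0.22, passed at 0.50 without IP 1 (edgeR FDR = 0.00720). Npas4 had no stable direction in cKO mice: its difference was log2 0.17, and it became 1.07 without IP 1 and -2.45 without IP 2, each past the threshold (edgeR FDR = 0.0239 and 0.00213).

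Among the 36 other rapid genes 3 rose and 3 fell in the WT IP of 32 tested, with a median of log2 0.07 against 0.00 over all genes, and 4 of 31 rose and 4 fell in the cKO IP (median 0.04). Over all genes tested 23.9% passed in WT and 27.5% in cKO. Plk2, a kinase of activated synapses, rose by 0.57 ± 0.13 in WT and 0.59 ± 0.11 in cKO. Trib1, a pseudokinase, fell by 1.90 in WT and by 2.44 in cKO on the log2 scale, and Klf6 fell by 0.55 and by 0.77. Late genes gave 1 higher and 1 lower call of 14 in WT (median 0.16), and upstream regulators 8 higher and 1 lower of 22 (median 0.34). In cKO mice late genes gave 3 higher and 0 lower by edgeR (median 0.22), and upstream regulators 13 higher and 2 lower (median 0.41). In the WT IPs all 7 astrocyte and all 8 microglial markers fell, with medians of log2 -2.95 and -3.42. The part of lost glial RNA in the values of Trib1, Klf6 and Dusp1 was not tested.

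Whether loss of 5-HT4R changed the genes was asked as cKO against WT in each of the 3 fractions. By edgeR 0 of 10 members passed in the vDG IP at an FDR of 0.1 (0.42% of 14300 genes passed, 0.0699% higher and 0.35% lower), 0 in the vDG input at 0.05 (2.44% of 15786, 0.108% higher and 2.33% lower) and 0 in the dDG input (0.0325% of 15383, 0.0065% higher and 0.026% lower). At an unadjusted p under 0.05 the counts were 1 (Nr4a1), 0 and 2 (Jun and Npas4), and DESeq2 also called 0 in each. The medians of the 10 were log2 -0.18, -0.09 and -0.09, against -0.00, 0.01 and -0.02 over all genes.

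Jun had the lowest FDR of the members in the dDG input, and Nr4a1 in both vDG fractions. Jun was at 207 and 193 CPM in the cKO IPs against 211, 238 and 240 in WT, at 147 and 157 against 165, 182 and 176 in the vDG inputs, and at 141 and 137 against 173, 178 and 183 in the dDG inputs. Every cKO library lay below every WT library of its fraction in all 3 fractions. The differences were log2 -0.20 ± 0.13, -0.18 ± 0.12 and -0.36 ± 0.10, and none passed (edgeR FDR = 0.576, 0.518 and 0.183). The sign held under all the alternatives run, at log2 -0.26 to -0.15, -0.24 to -0.13 and -0.38 to -0.33. By the study's methods inputs were taken from the supernatant before the IP, so vDG IP and input libraries may share mice, and the 3 fractions are not counted as independent.

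Nr4a1 was at 5.52 and 5.999 CPM in the cKO IPs against 10.3, 8.43 and 6.59 in WT, and at 5.25 and 6.76 against 6.93, 9.36 and 7.76 in the vDG inputs. Neither set of groups overlapped, and the differences of log2 -0.55 ± 0.25 and -0.41 ± 0.21 did not pass (edgeR FDR = 0.414 and 0.382). Under the alternatives they ran from log2 -0.70 to -0.38 and from -0.60 to -0.23, none past the threshold. In the dDG, where its level was lowest, the difference was log2 -0.01 with a 95% interval from -0.62 to 0.61. The genotype by region interaction of Nr4a1 was log2 -0.39 ± 0.34 (edgeR FDR = 0.705), so a difference between the regions in the genotype effect was not shown.

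Npas4 was higher in the cKO dDG, at 4.64 and 4.25 CPM against 4.13, 1.24 and 1.34 in WT, without overlap (log2 1.002 ± 0.42, edgeR FDR = 0.355). Without WT dDG input 1, the WT library at the cKO level, the difference was 1.78 and passed (FDR = 0.0213). Groups that did not overlap numbered 2 of 10 members in the IP, 3 in the vDG input and 4 in the dDG input, where 31.1%, 32.2% and 29.4% of all genes tested did not overlap. Those of the IP (Jun and Nr4a1) and of the vDG input (Fos, Jun and Nr4a1) were lower in cKO, as were 16% and 19.1% of all genes. In the dDG they were Jun, Junb and Ier2, lower as were 15.7% of all genes, and Npas4, higher as were 13.7%. Ier2 was at 18 and 9 reads in the cKO dDG libraries and at 30, 17 and 37 in WT (log2 -0.996 ± 0.52, edgeR FDR = 0.459).

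The intervals of the genotype difference were narrower for Egr1 and Fosb than for Npas4 and Fos. For Egr1 the 95% interval of cKO over WT was log2 -0.27 to 0.43 in the IP, -0.52 to 0.19 in the vDG input and -0.25 to 0.41 in the dDG input, and for Fosb -0.49 to 0.36, -0.37 to 0.36 and -0.69 to 0.19. For Arc it was -0.77 to 0.05 in the IP, where levels were 16.2 and 21.1 CPM in cKO and 19.7, 26.0 and 25.8 in WT. For Npas4 in the IP it ran from -1.53 to 1.38 and for Fos from -1.27 to 0.95. Both turned on the cKO IPs: without IP 2 the differences were -2.70 for Npas4 and -1.41 for Fos, and without IP 1 they were 0.78 and 0.48, none past the threshold (edgeR FDR = 0.359, 0.532, 0.908 and 0.937).

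**Figure D5:**
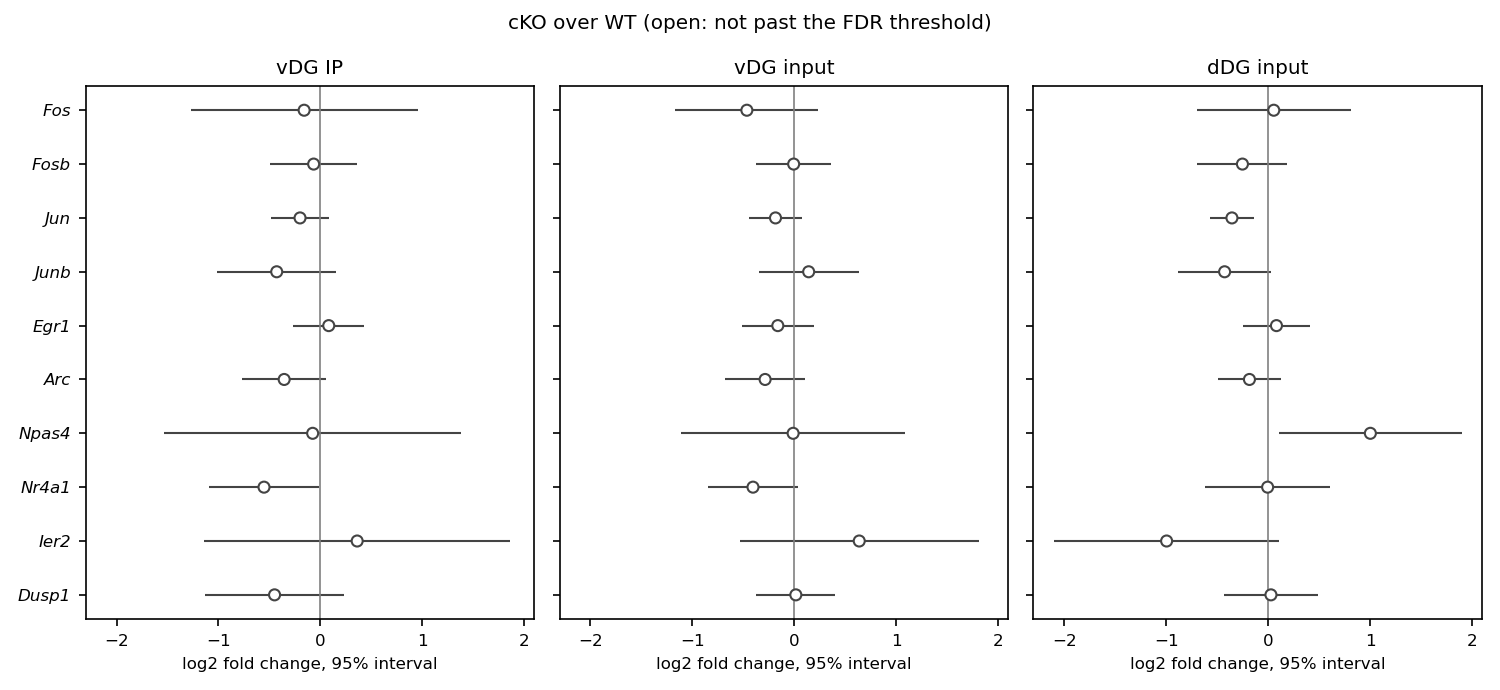
Log2 fold changes of cKO over WT for the 10 genes with 95% intervals from edgeR, in the vDG IP, the vDG input and the dDG input; open points did not pass the FDR threshold of 0.1 in the IP and 0.05 in the inputs. All points are open, Jun lies below zero in the 3 panels at -0.20, -0.18 and -0.36, and Ier2 and Npas4 have the widest intervals in the vDG.

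None of the other rapid genes passed in any fraction by edgeR (0 of 30, 0 of 32 and 0 of 31 tested), nor did any of the 22 upstream regulators. Of 14 late genes, whose medians were log2 -0.18 in the IP, -0.40 in the vDG input and -0.01 in the dDG input, 1 passed, Scg2, the precursor of secretoneurin, which fell by 0.79 in the vDG input on the log2 scale (edgeR FDR = 0.00396). Of the 8 inducible heat shock genes, a stress program with rapid induction of its own, 1 of 7 tested fell in the IP (median log2 -0.59), 3 of 8 in the vDG input (median -0.36) and 0 of 8 by edgeR in the dDG input (median -0.27). Hspa8 fell by 0.83 in the cKO IP and by 0.70 in the cKO vDG input, and Hsph1 fell by 0.65 in the latter (edgeR FDR = 0.0705, 0.00819 and 0.00785). Astrocyte markers were lower in the cKO vDG inputs, where their summed level was 336 to 357 CPM against 464 to 559 in WT and 4 of 7 fell. Mossy cell (396 to 433 against 497 to 543 CPM), interneuron (372 to 374 against 452 to 502), CA pyramidal (45.8 to 49.1 against 52.0 to 63.0) and microglial markers (22.8 to 30.2 against 31.6 to 50.015) were also below WT without overlap there. By edgeR 1 of 6 mossy cell, 0 of 7 interneuron, 0 of 6 CA pyramidal and 0 of 8 microglial markers passed. Of all single genes tested there 19.1% were below WT without overlap. In the cKO IPs interneuron (116 to 132 against 166 to 188 CPM), CA pyramidal (44.1 to 48.2 against 50.5 to 53.8) and mossy cell markers (529 to 532 against 536 to 675) were below WT and granule cell markers (1441 to 1508 against 1240.2 to 1373) above it, without overlap. By edgeR 1 of 5 tested interneuron markers passed, and 0 of 6 CA pyramidal, 0 of 6 mossy cell and 0 of 6 granule cell markers. Of all single genes tested 16% were below WT and 15.1% above it without overlap. In the dDG inputs astrocyte (343 to 470 against 482 to 512 CPM), granule cell (1558 to 1572 against 1582 to 1615), microglial (30.8 to 31.6 against 35.2 to 64.6) and choroid plexus markers (17.9 to 22.7 against 31.8 to 148) were below WT without overlap. By edgeR 0 of 7 astrocyte, 0 of 6 granule cell, 0 of 8 microglial and 0 of 3 tested choroid plexus markers passed. The part of these levels in the members' values, those of Nr4a1 and Jun in the vDG IP and input and of Fos in the vDG input among them, was not tested.

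In the interaction fits, genotype by region and genotype by fraction, edgeR called 0 members and 0 of 16306 and 0 of 16093 genes. The lowest p among the members was that of Ier2 for region, with log2 1.64 ± 0.76 (edgeR FDR = 0.394), and 1 member for region and 0 for fraction had an unadjusted p under 0.05.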

How the data were processed

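The 15 deposited files hold raw read counts per gene. Per the labels and methods, the authors amplified 15 ng of RNA (Ovation RNA-Seq System V2), prepared TruSeq libraries, aligned reads to mm10 with STAR (2.4.2a), removed duplicates with SAMtools (0.1.19-444) and counted with HTSeq in union mode at its default settings. Amplification and duplicate removal may compress high levels, and no molecular identifiers were stated, so counting intervals cover counting error only. Deposited tables of the authors' own comparisons (fold changes and p-values) were not used. Reads in no gene (12.6% to 20.9%) stayed out of the totals, and reads that HTSeq left ambiguous were 2.88% to 3.15% in IPs and 6.35% to 9.6% in inputs.

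Groups came from the sample titles. Counts were scaled by TMM and each pair of groups was fitted with edgeR (4.0.16) quasi-likelihood tests over all genes passing filterByExpr (count minimum 10), with Benjamini-Hochberg FDR under 0.05, or 0.1 for cKO against WT IP. SE is the log2 fold change over the square root of F, and intervals are at 95%. Interactions used 4 groups. No source states that pools were independent animals in each fraction. The main fits were unpaired, so p-values measure the spread between pools and not the spread of a difference within a pool. DESeq2 (1.42.0), other scalings and filters, one fit over all groups, a replicate block and leaving out each library were alternatives, as was an FDR of 0.05 for the IP, chosen after seeing the data. For levels, log2 CPM used a prior count of 2, and exonic lengths came from GENCODE M21. Promoters came from RefSeq (GRCm38.p6). R 4.3.3 and Python 3.11.15 were used, and the fits were checked on simulated counts.

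The members and lists were chosen with earlier results of these data known. All 10 members are named, with, from other lists, at most 3 genes per direction that passed and had a mean of 5 CPM or more, and the 5 genes most like the members by each of 2 correlations. The genes nearest to Npas4 and Creb1 were named after their values were seen.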

Additional observations from a re-analysis of the deposited data

How the results depend on the processing

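Over the 9 comparisons, 101 of the 119 recomputed counts of members called stayed within 1.5 times the count first given, and 18 did not. For cKO vDG against dDG input (4 called) the count was 2 under DESeq2, 2 with library size only, 1 with all groups in one fit and 2 to 4 when each library was left out. For WT IP against input (2 called) it was 0 with library size only, 0 with 10 counts in every library and 0 to 3 with each library left out. For cKO IP against input (2 called) it was 1 with library size only and 0 to 3 with each library left out. For cKO against WT dDG input (0 called) it was 1 without a count filter, where Npas4 was at log2 1.01, and 0 to 1 with each library left out. Of the members' own values, 29 lost and 9 gained a call, and 1 passed with the opposite sign, Npas4 in cKO IP against input, at log2 -2.45 without IP 2, where leaving out each library gave -2.45 to 1.44. An FDR of 0.05 for cKO against WT IP, chosen after seeing the data, left 0 called. Values that passed in neither setting also changed sign, as for Dusp1 in the genotype by region interaction, in 11 of 17 settings. The cause was not tested.

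With the replicate number as a block, WT IP against input gave 1 call (Jun) in place of 2, Junb falling to FDR = 0.0554 by edgeR, and Egr1 passed in WT vDG against dDG input (FDR = 0.0459). The block changed no other call. Deviations of same-numbered libraries correlated over 9133 genes at 0.384, -0.111 and 0.219 for WT vDG and dDG inputs and 0.464, -0.164 and -0.329 for WT IP and input, and at 0.158 for cKO vDG and dDG inputs and 0.441 for cKO IP and input. Not every pair was above 0.1 and no source says which mice a number stands for, so the numbers were not taken to pair the pools. Even so, vDG IP and input may share mice, and so may vDG and dDG inputs. The cKO dDG libraries titled 1 and 2 are numbered 2 and 3 in their file names.

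Groups of 2 and 3 pools and low reads for Fos, Npas4 and Ier2 limit what could be seen. Where a library was left out of a cKO group, the lone library was assumed to vary like the other group. With 10 counts in every library, Ier2 was tested in cKO IP against input alone, and Npas4 was not tested there, in cKO against WT IP or in the genotype by fraction interaction.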
